A study of Mus musculus with 15 samples.

Results

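The SALL family of mouse comprises the zinc finger transcription factor genes Sall1, Sall2, Sall3 and Sall4. They were taken as the rows of the count table that carry these symbols, 4 of 24034 gene rows, and all 4 passed the filter on low counts that left 13662 genes to test. The family was chosen by measured values, the Sall3 counts, which separated the ENG- from the ENG+ HEI libraries, so the ENG comparison is given as a description with no test. RNA was sequenced from cells sorted out of differentiated mouse embryonic stem cells; culture days and sort gates are not given in the sources at hand. Every cell carried a reporter in which the promoter of Endoglin (Eng, a co-receptor for TGF-beta ligands on endothelial and early blood-forming cells) and Eng enhancers drive bacterial beta-galactosidase. Cells with the enzyme are called LacZ+, or FDG+ after the substrate FDG, which becomes fluorescent when the enzyme cleaves it.

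The 5 sorted groups had 3 libraries each. Cells whose reporter held the promoter together with the -8 kb enhancer gave the HEI ENG-FDG+, HEI ENG+FDG+ and HEI ENG+FDG- groups, where ENG is the endoglin protein on the cell surface and HEI is a label that no source at hand spells out. The series' design text says that this construct marked TIE2+/c-KIT+/CD41- cells, which it abbreviates HE. From a second line, whose reporter also held enhancers at +7 and +9 kb, came FLK1+ LacZ+ and FLK1+ LacZ- cells. FLK1 is the VEGF receptor encoded by Kdr and marks the mesoderm from which blood and vessels arise. HEI cells came from one reporter line and FLK1+ cells from the other, so sorted population and line cannot be told apart. The labels do not say that replicates came from separate cultures, and p-values therefore measure the spread between these libraries only.

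SALL proteins are the vertebrate relatives of the Drosophila factor spalt. They bind DNA through pairs of zinc fingers, and a short motif at the amino end recruits the NuRD corepressor complex, which couples chromatin remodelling to histone deacetylation. SALL4 works with the pluripotency factors of embryonic stem cells, and in human cells it is a target of the CRL4-CRBN ubiquitin ligase when thalidomide is bound. SALL1 is needed for the outgrowth of the ureteric bud in kidney development, SALL3 for development of the palate and cranial nerves in mouse, and SALL2, the most divergent member, for closure of the optic fissure.

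All 4 genes lie on the minus strand of GRCm38. Sall1 spans chr8:89027235-89044162, Sall2 spans chr14:52311172-52328762 and Sall4 spans chr2:168748332-168767943. The noncoding gene Gm14261 overlaps the 5′ end of Sall4 on the opposite strand at chr2:168766143-168768108. Whether the libraries keep the strand is not given in the sources at hand, so reads of this pair could be mixed, and Gm14261 itself was not analysed here. The count of a gene sums the reads of all its start sites. To show how unlike these starts can be, the 250 bases upstream of a Sall1 and a Sall2 start are printed 5′ to 3′ on the gene's strand (RefSeq, GRCm38.p6), with each CG dinucleotide in capitals.
Sall1, chr8:89044163-89044412: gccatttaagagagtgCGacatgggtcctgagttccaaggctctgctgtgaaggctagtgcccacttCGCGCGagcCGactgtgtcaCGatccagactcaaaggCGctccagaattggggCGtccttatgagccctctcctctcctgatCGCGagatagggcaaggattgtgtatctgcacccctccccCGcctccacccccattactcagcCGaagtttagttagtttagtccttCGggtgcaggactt
Sall2, chr14:52316324-52316573: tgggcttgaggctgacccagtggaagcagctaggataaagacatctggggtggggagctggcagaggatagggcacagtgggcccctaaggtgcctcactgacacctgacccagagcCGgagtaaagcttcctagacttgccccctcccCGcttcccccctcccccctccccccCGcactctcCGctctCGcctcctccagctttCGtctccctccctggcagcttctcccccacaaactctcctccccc
The Sall1 window directly precedes the first exon of its annotated transcript and holds 13 CG dinucleotides with 56.4% G and C. At 2 further Sall1 starts in RefSeq, not matched to an annotated transcript of GENCODE, the windows held 25 and 30 CG dinucleotides with 74.4% and 78.4% G and C. The Sall2 window lies in the first intron of the longer Sall2 transcript, directly before the first exon of the shorter one, and holds 6 CG dinucleotides with 64.4% G and C. Over 32851 RefSeq windows of the same length, 92.1% held at least 1 CG, the median count was 6 and the median G and C content was 52.4%. The window of the other Sall2 start, of which 92 bases fall in the first annotated exon, held 0 CG dinucleotides and 28% G and C. It held 1 match to TATAAA, a sequence found on either strand in 12.4% of the windows. None of ATGCAAAT (the POU octamer, in 1.6% of windows), TGTGGT (a RUNX core, 14%), AGATAA (read by GATA factors, 9.99%), CAGCTG (an E-box, 13%) or CCGGAAG (ETS, 6.91%), searched on both strands, occurred in these 3 windows.

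Library totals ran from 9705729 to 16375835 counts, and the members had 206 to 8120 counts per library, which gives a counting error (SD) of 6.97% at the lowest and 1.11% at the highest. Replicate 1 of every group stood apart: its reads of the ribosomal precursor Rn45s made up 1.4% to 3.56% of the total, against 0.524% to 0.784% in replicates 2 and 3. Results were therefore also computed in replicates 2 and 3 alone. The gene of the sorted protein followed the labels. Eng averaged 81.8 ± 68.5 CPM in HEI ENG-FDG+ cells, 424 ± 416 CPM in HEI ENG+FDG+ cells and 454 ± 439 CPM in HEI ENG+FDG- cells (SD, n = 3 each), and the highest HEI ENG-FDG+ library, at 161 CPM, was below the lowest ENG+ HEI library, at 180 CPM. CPM is the count scaled to a common library size with TMM factors, a level that is not corrected for gene length. In these bulk samples, fewer cells of a type and less RNA per cell cannot be told apart.

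Sall4 was the member with the widest range of levels. It had 90.9, 40 and 36.5 CPM in the 3 HEI ENG-FDG+ libraries, 66.6, 44.7 and 46.3 CPM in HEI ENG+FDG+, and 66.7, 48.2 and 61.1 CPM in HEI ENG+FDG-. In FLK1+ cells it had 441, 271 and 246 CPM with LacZ+ and 569, 310 and 272 CPM with LacZ-. Every FLK1+ library was above every HEI library, the lowest at 246 CPM and the highest HEI library at 90.9 CPM, and the HEI groups overlapped one another. For scale, 15.4% of all genes lay lower without overlap in ENG+ HEI than in FLK1+ libraries. The share over all HEI libraries was not computed. Replicate 1 was the highest library of each group and was 2.38 times the mean of replicates 2 and 3 in HEI ENG-FDG+ cells.

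Sall3, at chr18:80966376-80986771, fell into 3 levels. The HEI ENG-FDG+ libraries had 72.2, 62.6 and 55 CPM, from 851, 651 and 646 reads. The HEI ENG+FDG+ libraries had 25.2, 26.4 and 20.5 CPM and the HEI ENG+FDG- libraries 20.6, 23.6 and 19.6 CPM. In FLK1+ LacZ+ cells the values were 104, 90.7 and 94.9 CPM, and in FLK1+ LacZ- cells 120, 86.6 and 85.5 CPM. HEI ENG-FDG+ cells thus lay between the other HEI groups and the FLK1+ groups with no overlap on either side, while the ENG+ groups overlapped each other, as did the FLK1+ groups. The separation from the ENG+ groups is the contrast by which the family was chosen. For scale, 5.99% of all genes were higher without overlap than in ENG+FDG+ cells and 6.18% than in ENG+FDG- cells. Against FLK1+ LacZ+ cells 15.7% were lower without overlap. The share of genes with all 3 levels was not computed. Replicate 1 lay closer to the others for Sall3 than for Sall1, at 0.952 to 1.4 times the mean of replicates 2 and 3.

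Sall2, in contrast to Sall4, was higher in ENG+ HEI than in FLK1+ libraries. It had 19.6, 50 and 47.3 CPM in HEI ENG-FDG+ cells, 53.9, 51.6 and 55.3 CPM in HEI ENG+FDG+ cells and 50.8, 57.7 and 55.2 CPM in HEI ENG+FDG- cells. The FLK1+ libraries had 43.7, 32.2 and 31.7 CPM with LacZ+ and 31.8, 26.3 and 32.2 CPM with LacZ-. All 6 ENG+ HEI libraries were above all 6 FLK1+ libraries, as they were for 13.5% of all genes. HEI ENG-FDG+ replicate 1 was the lowest of all 15 libraries, at 0.403 times the mean of replicates 2 and 3 of its group, so the HEI ENG-FDG+ group overlapped both FLK1+ groups.

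Sall1 showed no pair of groups without overlap. Its values were 43.2, 36.5 and 28.1 CPM in HEI ENG-FDG+ cells, 61.5, 46.6 and 40.8 CPM in HEI ENG+FDG+ cells and 59.7, 41.3 and 36.5 CPM in HEI ENG+FDG- cells. FLK1+ LacZ+ cells had 114, 44.9 and 34.1 CPM, and FLK1+ LacZ- cells 134, 48.6 and 41.2 CPM. Replicate 1 was the highest in all 5 groups, at 2.9 times the mean of replicates 2 and 3 in FLK1+ LacZ+ cells and 2.99 times in FLK1+ LacZ- cells.

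**Figure D1:**
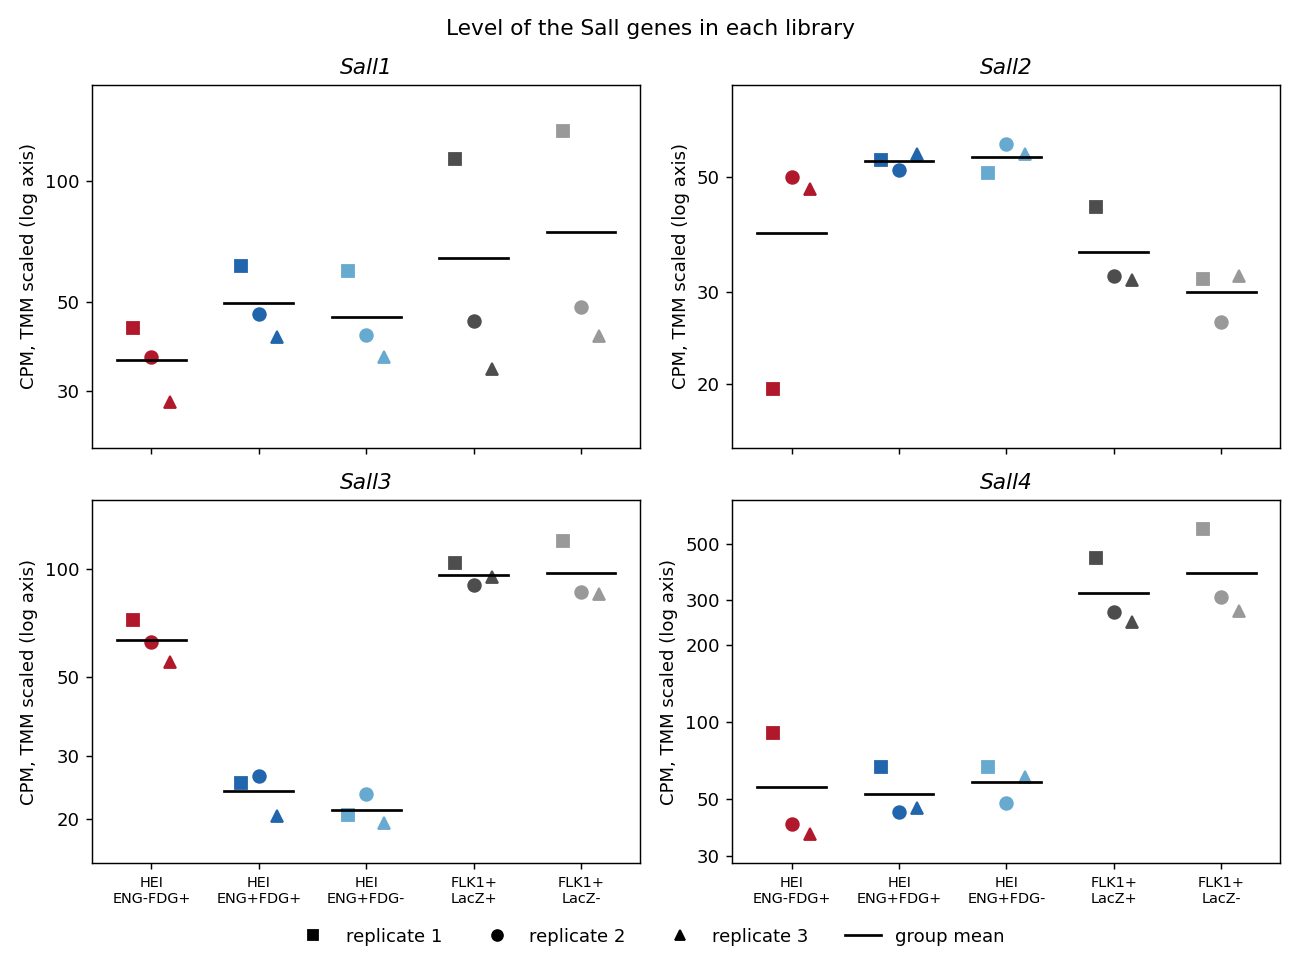
Level of each Sall gene (CPM, log axis) in each of the 15 libraries, by sorted group, with the replicate shown by the symbol and the group mean by a line. Sall3 forms 3 levels, Sall4 is at 246 CPM or more in every FLK1+ library, and the Sall1 values of replicate 1 stand above replicates 2 and 3.

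To compare the genes with one another, levels were divided by the length of each gene's merged exons (5.265 kb for Sall1, 5.433 kb for Sall2, 7.481 kb for Sall3 and 5.536 kb for Sall4). The summed family level was 32.5 ± 4.99 CPM per kb in HEI ENG-FDG+ cells (SD, n = 3) and 32.1 ± 3.3 CPM per kb in ENG+ HEI cells (n = 6), against 95.8 ± 33.2 CPM per kb in FLK1+ cells (n = 6). The make-up of this sum differed among the groups. In ENG+ HEI cells Sall2 made up 31.3 ± 3.9%, Sall4 31.1 ± 3.5%, Sall1 28 ± 3.64% and Sall3 9.5 ± 1.43% of the sum (n = 6). In FLK1+ cells Sall4 made up 66.1 ± 2.01%, Sall3 14.3 ± 2.9%, Sall1 12.8 ± 3.53% and Sall2 6.76 ± 1.69% (n = 6). In ENG+ HEI cells the shares of Sall1, Sall2 and Sall4 differed by less than their spread, whereas in FLK1+ cells Sall4 alone exceeded the other 3 members together in every library, at 64% to 68.6%. In HEI ENG-FDG+ cells Sall3 made up 25.5%, 26.4% and 26.3% of the sum, against 7.74% to 11.8% over the ENG+ HEI libraries. The other shares of HEI ENG-FDG+ cells were 29.9 ± 11.7% for Sall4, 23.2 ± 11.9% for Sall2 and 20.9 ± 1.54% for Sall1 (SD, n = 3). Replicate 1 held 43.3% Sall4 and 9.52% Sall2, against 22.8% and 23.5% Sall4 and 29% and 31.1% Sall2 in replicates 2 and 3 of that group.

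**Figure D2:**
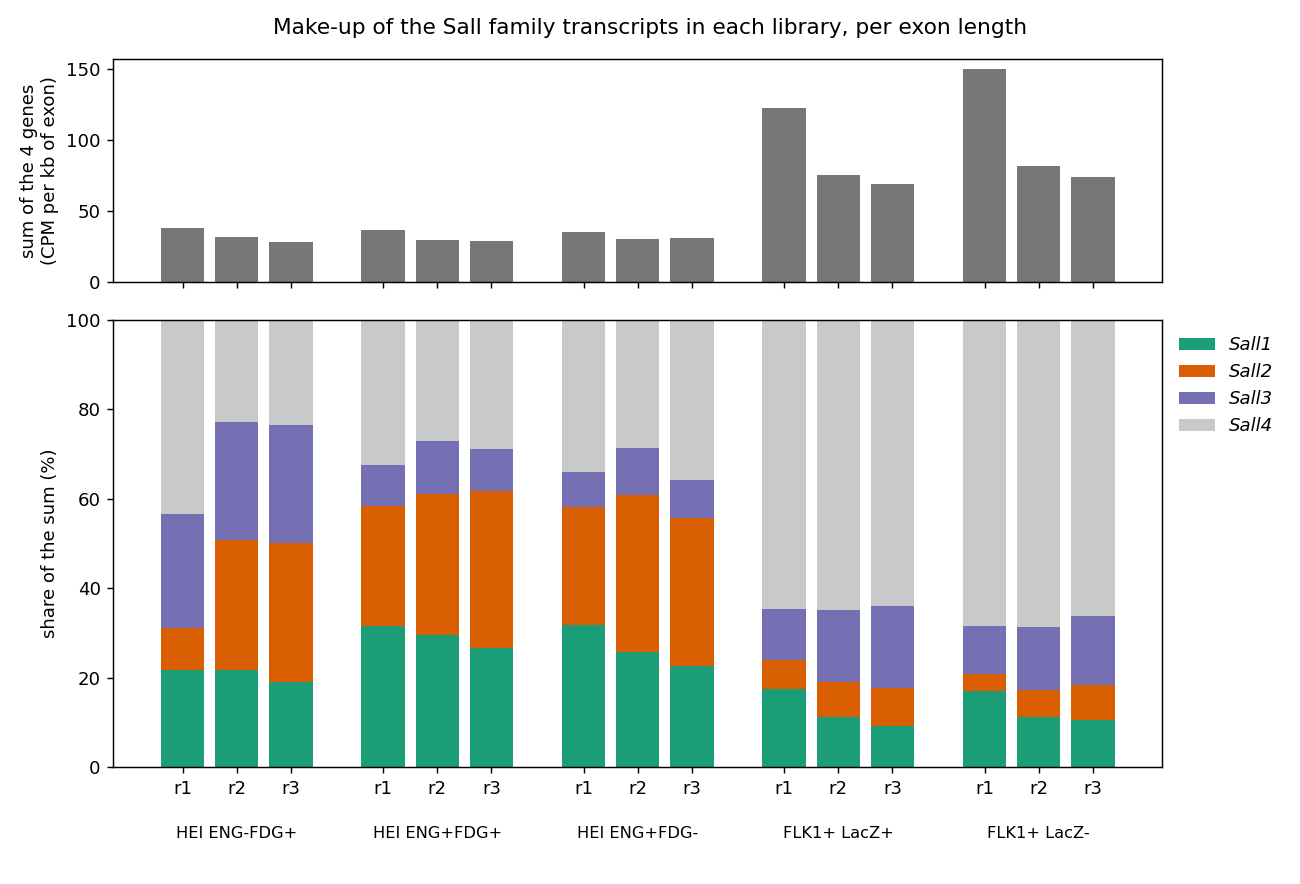
Sum of the 4 Sall genes per kb of exon in each library (upper bars, CPM per kb) and the share of each gene in that sum (lower bars, percent), for replicates r1 to r3 of each sorted group. Sall4 holds 64% to 68.6% of the sum in FLK1+ libraries, and Sall3 holds 25.5% to 26.4% in HEI ENG-FDG+ libraries.

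Between ENG+ HEI cells and FLK1+ mesoderm, Sall4 fell and Sall2 rose. Sall4 averaged 55.6 ± 10.4 CPM in ENG+ HEI cells, against 352 ± 127 CPM in FLK1+ cells (SD, n = 6 each), a log2 difference of -2.66 ± 0.29 (SE), or 6.3-fold lower (edgeR quasi-likelihood test, Benjamini-Hochberg adjusted p = 1.95e-05). Sall2 averaged 54.1 ± 2.56 CPM in ENG+ HEI cells, against 33 ± 5.72 CPM in FLK1+ cells, a log2 difference of 0.72 ± 0.21, or 1.65-fold higher (edgeR adjusted p = 0.0162). All 3 replicate numbers showed these directions, by -2.91, -2.64 and -2.28 for Sall4 and by 0.49, 0.90 and 0.79 for Sall2. The 6 libraries of a side are reporter-positive and reporter-negative fractions that share replicate numbers, and the fit above has no term for them. With the replicate number as a block, Sall4 differed by -2.60 ± 0.13 (edgeR adjusted p = 5.76e-10) and Sall2 by 0.71 ± 0.18 (edgeR adjusted p = 0.00346). Of the 3 members tested here, 1 rose and 1 fell. Among all 13662 genes, 36.6% passed the same test, 16.7% higher and 19.9% lower, and with the replicate number as a block 65.7% passed, so a change in this comparison was common. The ENG+ HEI and FLK1+ libraries did not overlap for Sall2 and Sall4, and 13.5% of all genes lay higher and 15.4% lower without overlap. The median log2 difference over all genes was -0.14.

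Sall1 did not pass this test. It averaged 47.8 ± 10.5 CPM in ENG+ HEI cells and 69.6 ± 43.2 CPM in FLK1+ cells (SD, n = 6 each), a log2 difference of -0.54 ± 0.35 (edgeR adjusted p = 0.257). The difference rested on replicate 1, at -1.03, against -0.091 in replicate 2 and 0.045 in replicate 3, and in replicates 2 and 3 alone it was 0.083 ± 0.10 (edgeR adjusted p = 0.482). Sall3, given with no test since its ENG+ HEI levels were used to choose the family, averaged 22.6 ± 2.83 CPM in ENG+ HEI cells and 97.1 ± 13.3 CPM in FLK1+ cells, 4.29-fold lower. In replicates 2 and 3 alone the spread between libraries was smaller, with a biological coefficient of variation of 0.0761 against 0.477 over all 15 libraries. There Sall2 differed by 0.96 ± 0.079 (edgeR adjusted p = 1.24e-09) and Sall4 by -2.35 ± 0.075 (edgeR adjusted p = 2.54e-15), among 74.1% of genes that passed.

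HEI ENG-FDG+ cells set against FLK1+ LacZ+ cells compare reporter-positive fractions of the 2 lines. Sall4 averaged 55.8 ± 30.4 CPM in HEI ENG-FDG+ cells, against 319 ± 106 CPM in FLK1+ LacZ+ cells (SD, n = 3 each), and fell by 2.52 ± 0.41 on the log2 scale, 5.72-fold (edgeR adjusted p = 0.00164). It was the only one of the 3 members tested that passed, in a comparison in which 7.33% of all genes passed lower and 6.64% higher. The groups did not overlap for Sall4, and 15.7% of all genes lay lower without overlap. Sall2 averaged 39 ± 16.8 CPM in HEI ENG-FDG+ cells and 35.9 ± 6.78 CPM in FLK1+ LacZ+ cells (log2 difference 0.12 ± 0.30, edgeR adjusted p = 0.874). Its pairs disagreed, with -1.15 in replicate 1 and 0.63 and 0.57 in replicates 2 and 3, and in replicates 2 and 3 alone the difference was 0.68 ± 0.11 and passed (edgeR adjusted p = 4.2e-05), as 54.9% of all genes did there. Sall1 averaged 35.9 ± 7.55 CPM in HEI ENG-FDG+ cells and 64.4 ± 43.5 CPM in FLK1+ LacZ+ cells (log2 difference -0.84 ± 0.50, edgeR adjusted p = 0.331). With the replicate number as a block it was -0.68 ± 0.24 and passed (edgeR adjusted p = 0.033), in a fit in which 41.5% of all genes passed, yet without FLK1+ LacZ+ replicate 1 it was -0.14. Sall3, with no test, was 1.53-fold lower in HEI ENG-FDG+ cells, at 63.3 ± 8.61 CPM against 96.6 ± 6.89 CPM.

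The choice of the family rested on HEI cells that had the reporter but lacked surface ENG. Sall3 averaged 63.3 ± 8.61 CPM in HEI ENG-FDG+ cells, against 24 ± 3.14 CPM in HEI ENG+FDG+ cells and 21.3 ± 2.11 CPM in HEI ENG+FDG- cells (SD, n = 3 each). This was 2.63-fold higher than in ENG+FDG+ cells and 2.98-fold higher than in ENG+FDG- cells, with log2 differences of 1.40 and 1.57. The lowest HEI ENG-FDG+ library, at 55 CPM, was above the highest ENG+ HEI library, at 26.4 CPM. The pair differences against ENG+FDG+ cells were 1.51, 1.24 and 1.42. For scale, 5.99% of all genes were higher without overlap in HEI ENG-FDG+ than in ENG+FDG+ cells and 6.18% higher than in ENG+FDG- cells, and 0.278% and 0.351% passed the edgeR test in either direction. Nothing is read from these shares, since the choice used the same contrast.

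No other member was higher in HEI ENG-FDG+ than in ENG+ HEI cells in all pairs. Sall2 was 1.38-fold lower in HEI ENG-FDG+ than in ENG+FDG+ cells and below it in all 3 pairs, by -1.45 in replicate 1 and by -0.045 and -0.23 in replicates 2 and 3. Sall2 also separated the HEI libraries, narrowly and in the opposite direction to Sall3. Its highest HEI ENG-FDG+ library, at 50 CPM, was below its lowest ENG+ HEI library, at 50.8 CPM. The share of all genes that lay lower without overlap is not given here. Nothing is read from the Sall2 separation either, since the choice used the same contrast. Sall1 was lower in all 3 pairs as well, by -0.51, -0.35 and -0.54. Sall4 had 0.45 in replicate 1 and -0.16 and -0.34 in replicates 2 and 3.

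Marker genes of other cell types also differed among the HEI groups, some in the direction of Sall3 and some against it. Their part in the Sall3 values was not tested. The early blood list (11 genes, 10 tested, none at 0 in every library of a group) summed to 590 to 874 CPM in HEI ENG-FDG+ cells, 208 to 235 CPM in HEI ENG+FDG+ cells and 184 to 286 CPM in HEI ENG+FDG- cells. All 10 were higher in HEI ENG-FDG+ than in ENG+FDG+ cells, and 1 passed, Runx1, the factor that starts blood cell formation from endothelium, at 273 ± 35.2 CPM against 31.2 ± 1.6 CPM (edgeR adjusted p = 0.00384). Of all genes 0.278% passed this test. With the replicate block 8 of the 10 early blood genes passed, in a fit in which 10.8% of all genes passed. The endothelial list (12 genes, none at 0) summed to 2520 to 2840 CPM in HEI ENG-FDG+ cells, 4690 to 6310 CPM in HEI ENG+FDG+ cells and 4530 to 7250 CPM in HEI ENG+FDG- cells, with 12 of 12 lower in HEI ENG-FDG+ than in ENG+FDG+ cells, 0 passing and 5 passing with the block. This list holds Eng and Kdr, the genes of the sort markers. Without them it summed to 1960 to 2130 CPM in HEI ENG-FDG+ cells, 3490 to 4640 CPM in HEI ENG+FDG+ cells and 3400 to 5400 CPM in HEI ENG+FDG- cells, with 10 of 10 lower against ENG+FDG+ cells and 3 passing with the block. The shortened list still holds Tek, the gene of TIE2, and the early blood list holds Itga2b, the gene of CD41. Whether HEI cells were also sorted by these proteins is not given, so both lists may hold further sort genes. The smooth muscle and mesenchyme list (11 genes) summed to 359 to 5170 CPM in HEI ENG-FDG+ cells, 129 to 588 CPM in HEI ENG+FDG+ cells, where Prrx1 was at 0, and 273 to 482 CPM in HEI ENG+FDG- cells. In it Postn, an extracellular matrix gene, passed against ENG+FDG+ cells, at 52.3 ± 35.3 CPM against 3.85 ± 0.941 CPM (edgeR adjusted p = 0.0436), and 7 genes passed with the block. In the tail bud and neuromesodermal list (10 genes, 8 tested) the homeobox gene Nkx1-2 passed, at 15.3 ± 13.6 CPM against 1.42 ± 0.37 CPM in ENG+FDG+ cells (edgeR adjusted p = 0.0436). That list summed to 20.5 to 40 CPM in HEI ENG-FDG+ cells, with Fgf8, Wnt3a and Sp5 at 0, to 8.98 to 15 CPM in HEI ENG+FDG+ cells, with Cdx1, Fgf8, Wnt3a and Sp5 at 0, and to 10.4 to 18 CPM in HEI ENG+FDG- cells, with Cdx1, Fgf8 and Wnt3a at 0. No gene of the other 7 lists passed in this comparison. A fit of only the groups compared called 0 genes, so the calls of Runx1, Postn and Nkx1-2 were lost there.

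Within either line, no member that was tested passed between reporter-positive and reporter-negative cells. Between HEI ENG+FDG+ and ENG+FDG- cells the log2 differences were 0.11 ± 0.49 for Sall1, -0.027 ± 0.30 for Sall2 and -0.16 ± 0.39 for Sall4 (SE, edgeR adjusted p = 1 for each). Sall3 differed by 0.18, given with no test since its levels in these groups entered the choice of the family. Between FLK1+ LacZ+ and LacZ- cells they were -0.21 ± 0.49 for Sall1, 0.25 ± 0.30 for Sall2, -0.013 ± 0.20 for Sall3 and -0.27 ± 0.39 for Sall4 (edgeR adjusted p = 1 for each). The edgeR test called 0% of all genes in both comparisons, with 39 genes at an unadjusted p below 0.05 for FDG and 170 for LacZ, and DESeq2 called 0 for FDG and 8 for LacZ. In replicates 2 and 3 alone, edgeR called 75 genes for FDG (0.563%) and 8 for LacZ (0.0601%), none of them a member tested in that comparison. Sall1 was higher in 3 of 3 FDG pairs (0.044, 0.17 and 0.16) and lower in 3 of 3 LacZ pairs (-0.23, -0.12 and -0.27). Sall4 was lower in 3 of 3 FDG pairs (-0.003, -0.11 and -0.40) and in 3 of 3 LacZ pairs (-0.37, -0.20 and -0.15), and Sall3 was higher in 3 of 3 FDG pairs (0.29, 0.16 and 0.064). The difference between the FDG and LacZ effects on Sall1 was 0.33 ± 0.70 and did not pass (edgeR adjusted p = 1), nor did that of Sall2 or Sall4.

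**Figure D3:**
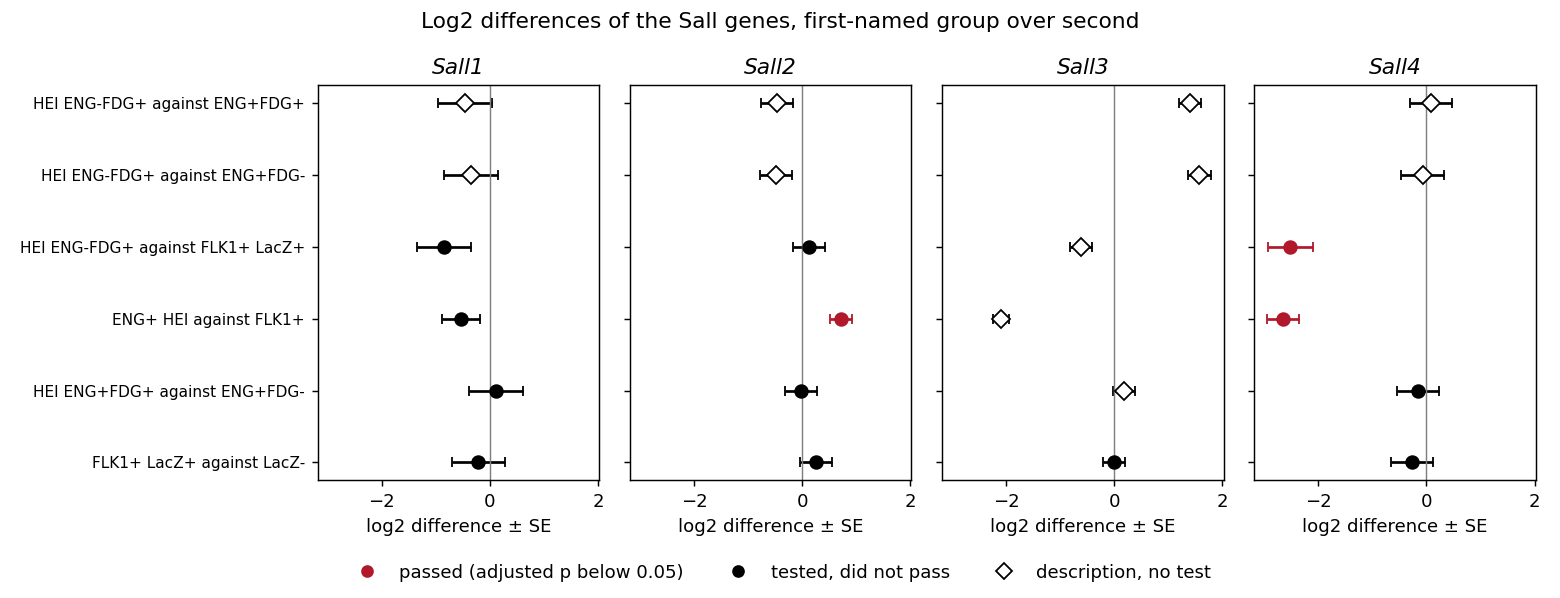
Log2 difference (first-named group over second) with its SE for each Sall gene in 6 comparisons. Filled red points passed the edgeR test, filled black points were tested and did not pass, and open diamonds are descriptions with no test. Nothing is read from the SE of the diamonds, which comes from the same fit. Sall4 in both comparisons with FLK1+ cells and Sall2 in ENG+ HEI against FLK1+ cells are the points that passed.

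Genes around the SALL factors were read from lists. Of the NuRD complex, 14 of 14 genes were tested in ENG+ HEI against FLK1+ cells, 2 rose and 3 fell, with a median of -0.28. The 5 of 14 genes that passed lie near the 36.6% of all genes, and the 9 of 14 that passed with the replicate block lie near the 65.7% of all genes. Mbd2, which binds methylated DNA, averaged 70.1 ± 10.4 CPM in ENG+ HEI cells, against 22.1 ± 2.17 CPM in FLK1+ cells (log2 difference 1.66 ± 0.14, edgeR adjusted p = 2.23e-06). The remodelling ATPase Chd3 rose too, to 56.6 ± 5.18 CPM in ENG+ HEI cells, against 31 ± 2.67 CPM in FLK1+ cells (edgeR adjusted p = 0.000193). The deacetylase Hdac1 fell to 116 ± 22.2 CPM in ENG+ HEI cells, against 187 ± 27.4 CPM in FLK1+ cells (edgeR adjusted p = 0.0109), and the small subunit Cdk2ap1 fell to 26.6 ± 11.9 CPM, against 59.5 ± 30.6 CPM (edgeR adjusted p = 0.0286). The other ATPase, Chd4, had 548 ± 76 CPM in ENG+ HEI cells and 602 ± 135 CPM in FLK1+ cells and did not pass (edgeR adjusted p = 0.631); it was named after its values were seen. Of the CRL4-CRBN ligase, 1 of 6 genes rose, near the 16.7% of all genes that did. It was the scaffold Cul4a, at 302 ± 67 CPM in ENG+ HEI cells against 137 ± 33.7 CPM in FLK1+ cells (edgeR adjusted p = 0.00144). With the block 4 rose and 2 fell, in a fit in which 65.7% of all genes passed. The median of the 6 ligase genes was 0.36.

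Of the pluripotency list 14 genes were tested, 12 fell and 1 rose. Of these 14, 9 reached the level of the count filter (0.888 CPM in at least 3 libraries) through FLK1+ libraries alone, so their fall was fixed by the filter and the count of 12 supports nothing. Among the other 5 genes, 3 fell and 1 rose, in a test in which 19.9% of all genes fell and 16.7% rose. The 3, named after their values were seen, were Dnmt3b, Lin28a and Tfcp2l1. Dnmt3b had 60.4 ± 9.74 CPM in ENG+ HEI cells against 247 ± 95 CPM in FLK1+ cells. Lin28a had 228 ± 67.8 CPM against 519 ± 104 CPM, and Tfcp2l1 0.938 ± 0.495 CPM against 7.94 ± 7.03 CPM. Pou5f1, Tdgf1, Nanog and Dppa5a, given next, are among the 9, so nothing is read from their falls. Pou5f1, the POU factor with which SALL4 works in stem cells, had 0 reads in the 6 ENG+ HEI libraries, against 10.7 ± 13.7 CPM in FLK1+ cells, at least 43.3-fold lower if a count of 0 allows 3 counts per library. Tdgf1, a Nodal co-receptor, had 0.392 ± 0.383 CPM in ENG+ HEI cells, against 357 ± 157 CPM in FLK1+ cells, Nanog 0.031 ± 0.0482 CPM against 15.5 ± 6.93 CPM, and Dppa5a 0.107 ± 0.177 CPM against 33.5 ± 41.7 CPM. Klf4, named after its values were seen, rose to 112 ± 93.8 CPM in ENG+ HEI cells, against 18.6 ± 13.9 CPM in FLK1+ cells (edgeR adjusted p = 0.00973). Sall4 itself had 44.7 to 66.7 CPM in the ENG+ HEI libraries. In HEI ENG-FDG+ cells Nanog had 0 reads and Pou5f1 1 read over the 3 libraries. The summed list ran from 485 to 512 CPM in HEI ENG-FDG+ cells, 386 to 439 CPM in ENG+ HEI cells and 1030 to 1520 CPM in FLK1+ cells. Most of the sum in HEI cells was Lin28a, Dnmt3b and Klf4, which averaged 328, 101 and 57.7 CPM in HEI ENG-FDG+ cells. The part of the list in the fall of Sall4 was not tested.

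Lists of tissues in which SALL factors act were read in the same comparison. Of the kidney progenitor and intermediate mesoderm list, 7 of 12 genes could be tested and 4 fell. Of these, 2 (Lhx1 and Cited1) passed the count filter through FLK1+ libraries alone, so their fall was fixed by the filter. Among the 4 was Lhx1, at 0.0395 ± 0.0713 CPM in ENG+ HEI cells against 54.1 ± 50.1 CPM in FLK1+ cells. The others were Cited1 (log2 difference -5.26 ± 0.78), Six2 (-4.55 ± 0.76) and Gata3 (-1.71 ± 0.33), which mark nephron progenitors and the nephric duct. Of the limb and heart list, 6 of 10 fell, among them the factors Tbx5 (-5.68 ± 0.63), Isl1 (-3.19 ± 0.41) and Hand1 (-3.15 ± 0.73), and 2 rose. Those that rose were Mef2c, a factor of muscle and endothelium, at 95.2 ± 14.4 CPM in ENG+ HEI cells against 5.83 ± 2.61 CPM in FLK1+ cells (edgeR adjusted p = 8.12e-07), and Hand2, named after its values were seen, at 50.1 ± 12 CPM against 9.82 ± 4.88 CPM. Of the tail bud and neuromesodermal list 8 of 8 fell, of the neural and ectoderm list 3 of 6 fell and 1 rose, and of the endoderm list 2 of 4 fell and 1 rose. Of the genes that fell, 1 in the limb and heart list (Tbx5), 6 in the tail bud, 2 in the neural and 2 in the endoderm list passed the filter through FLK1+ libraries alone. Their falls were likewise fixed by the filter. The endothelial list rose in 12 of 12 genes, and in 10 of 10 without Eng and Kdr. Tek, the gene of TIE2, is among the 10 and may also be a sort gene. The smooth muscle and mesenchyme list had 5 rises and 4 falls among 11 genes, and the early blood list 2 rises and 3 falls among 10. For scale, 16.7% of all genes rose and 19.9% fell in this test. The early blood counts lie near these shares, so nothing is read from them. The part of any of these cell types in the Sall4 and Sall2 values was not tested. In the LacZ and FDG comparisons 0 genes passed in all 11 lists.

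**Figure D4:**
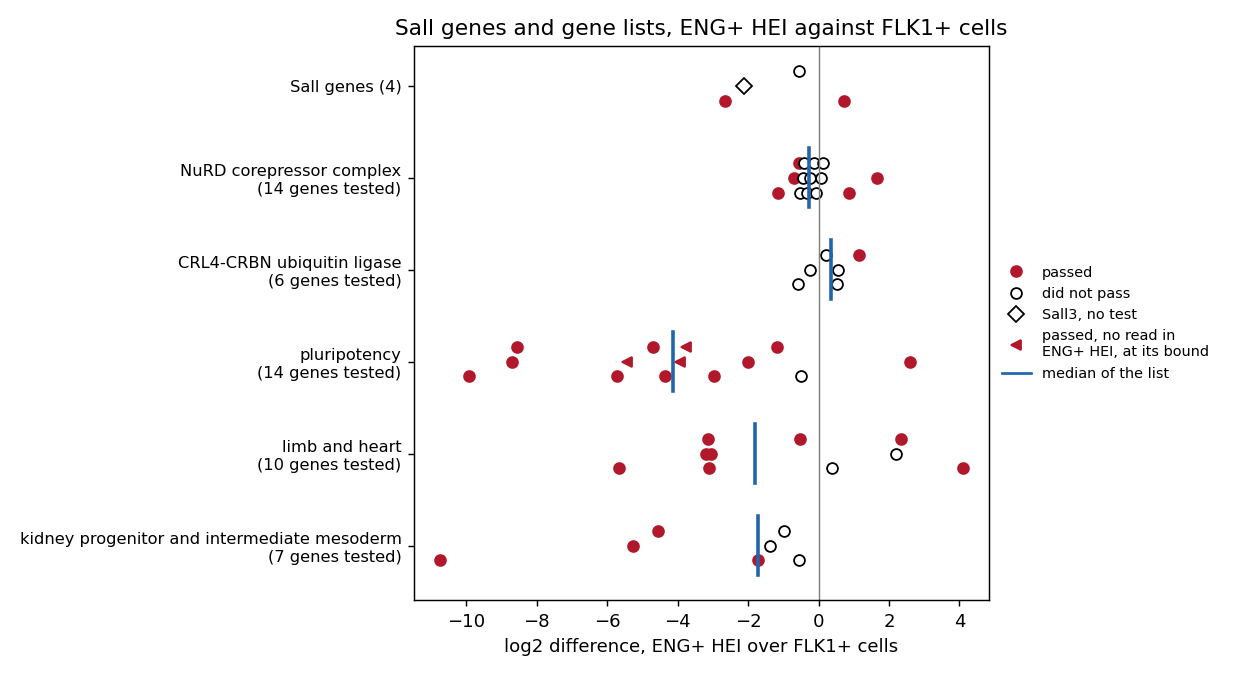
Log2 difference, ENG+ HEI over FLK1+ cells, of each tested gene in 5 lists and of the 4 Sall genes, with the median of each list, but not of the Sall genes, as a blue line. Triangles mark 3 pluripotency genes with no read in ENG+ HEI cells, drawn at their bound; 9 pluripotency genes passed the count filter through FLK1+ libraries alone, so the list's place on the axis is in part fixed by the filter.

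Sall2 and Sall4 ran against each other across the 15 libraries (Pearson r of log2 CPM -0.626, and -0.94 over the 10 libraries of replicates 2 and 3), and Sall3 and Sall4 ran together (0.787). Sall2 and Sall3 had r = -0.749 and Sall1 and Sall4 0.606, while Sall1 had 0.295 with Sall3 and -0.1 with Sall2. These values are descriptions: the libraries share groups and replicate numbers. The gene names that follow depend on the libraries: of the 5 named for each member, 0 for Sall1, Sall2 and Sall3 and 2 for Sall4 were also among the 5 closest in replicates 2 and 3. Among 10621 named genes at 5 CPM or more in at least 1 group, the pattern most like that of Sall3 was that of H2afz, a histone variant gene (r = 0.992), followed by Spc24 of the kinetochore (0.985), the phosphatase gene Ptprj (0.972), the exchange factor gene Kalrn (0.972) and the modifier gene Sumo2 (0.97). H2afz averaged 1030 ± 63.1 CPM in HEI ENG-FDG+ cells, 608 ± 50.3 CPM in HEI ENG+FDG+ cells, 566 ± 29.4 CPM in HEI ENG+FDG- cells, 1200 ± 74.4 CPM in FLK1+ LacZ+ cells and 1290 ± 183 CPM in FLK1+ LacZ- cells, the same order of 3 levels with a narrower range. Closest to Sall4 were the kinase gene Hunk (0.991), the proteasome activator gene Psme2 (0.987), Kazn (0.986), the Polycomb gene Cbx2 (0.984) and Lef1 of the Wnt pathway (0.983). Lef1 averaged 16.2 ± 12.8 CPM in HEI ENG-FDG+ cells, 21.2 ± 12 CPM in HEI ENG+FDG+ cells, 19.3 ± 8.25 CPM in HEI ENG+FDG- cells, 123 ± 30.3 CPM in FLK1+ LacZ+ cells and 156 ± 50.7 CPM in FLK1+ LacZ- cells. Closest to Sall2 were Tex2 (0.973), Mppe1 (0.961), Tmem106c (0.948), Zfp46 (0.945) and Snx29 (0.945). Closest to Sall1 were the peroxisome gene Pex26 (0.949), Ltbp4 (0.943), B9d1 (0.938), Wdtc1 (0.936) and Hist2h2ab (0.932), which for Sall1 followed the high replicate 1: over replicates 2 and 3 these r were 0.565 to 0.789.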

How the data were processed

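Per the labels' protocols, RNA was amplified (Nugen) before Illumina library construction; amplified reads are not independent molecules, so counting errors cover counting only. The deposited file holds whole-number read counts by gene symbol, as the authors left them, with no normalization. The submitters' processing notes name HTSeq 0.6.1, STAR 2.4.0 and mm10; neither annotation nor strand setting is given in the sources at hand. Of 24061 lines, 27 with a calendar date in place of a symbol were left out. Counts were analysed in R 4.3.3 (limma 3.58.1, edgeR 4.0.16): filterByExpr kept 13662 genes, TMM factors scaled the libraries, and all 15 libraries entered 1 robust quasi-likelihood fit of group means. Adjusted p-values are Benjamini-Hochberg values over all 13662 genes, with a threshold of 0.05. The SE is the log2 difference divided by the root of the quasi-likelihood statistic. Pair differences and correlations used log2 CPM with a prior count of 2. The fitting script was tested on simulated data. Alternatives were RLE size factors, no filter, a filter of 5 CPM in 3 libraries, DESeq2 1.42.0, only the groups compared, each library left out, replicates 2 and 3 alone, and the replicate number as a block.

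Replicate numbers pair the libraries: deviations from the group means correlated between groups in all 30 same-numbered pairs (r from 0.432 to 0.867). No 2 libraries of a group agreed within sampling noise, but replicates 2 and 3 were far closer to each other than to replicate 1. The chi-square per degree of freedom was 3.63 to 8.37 between replicates 2 and 3 of a group. With replicate 1 in the pair it was 206 to 291. Whether replicates 2 and 3 came from separate cultures is not given. Gene coordinates and exon lengths came from GENCODE M21 (GRCm38). The rule for naming genes takes the members, the 5 genes most correlated with each, up to 4 genes past the threshold by size in each list discussed, and Eng and Kdr, the genes of the sort markers. Kdr averaged 572 ± 146 CPM in HEI ENG-FDG+, 932 ± 142 CPM in HEI ENG+FDG+, 935 ± 37.7 CPM in HEI ENG+FDG-, 494 ± 162 CPM in FLK1+ LacZ+ and 536 ± 201 CPM in FLK1+ LacZ- cells (SD, n = 3 each). The members and the 11 lists were chosen with earlier results of these data known.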

Additional observations from a re-analysis of the deposited data

How the results depend on the processing

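In ENG+ HEI against FLK1+ cells Sall2 and Sall4 passed under every alternative run, with Sall2 at 0.68 to 0.80 and Sall4 at -2.76 to -2.46 when single libraries were left out. The replicate block changed the call of no member other than Sall1 in HEI ENG-FDG+ against FLK1+ LacZ+ cells (-0.68, now passing). In replicates 2 and 3 alone Sall2 passed in that comparison (0.68), and the sign turned for Sall1 in ENG+ HEI against FLK1+ cells (0.083), Sall3 in LacZ+ against LacZ- cells (0.098), Sall4 in HEI ENG-FDG+ against ENG+FDG+ cells (-0.31, not tested) and Sall4 in the difference between reporter effects (-0.057). Genes called in ENG+ HEI against FLK1+ cells numbered 5007, against 8977 with the replicate block and 9873 in replicates 2 and 3. In HEI ENG-FDG+ against FLK1+ LacZ+ cells they numbered 1909, against 5676 with the block, 7310 in replicates 2 and 3 and 557 with only the groups compared. In HEI ENG-FDG+ against ENG+FDG+ cells they numbered 38, against 12 with no filter, 65 at 5 CPM, 441 by DESeq2, 1482 with the block, 3899 in replicates 2 and 3 and 0 with only the groups compared. Against ENG+FDG- cells they numbered 48, against 13 with no filter, 445 by DESeq2, 1515 with the block, 3605 in replicates 2 and 3 and 0 with only the groups compared. LacZ+ against LacZ- cells had 0, against 8 by DESeq2 and 8 in replicates 2 and 3, FDG+ against FDG- cells 0 against 75 in replicates 2 and 3, and the difference between reporter effects 0 against 4. Leaving out single libraries gave, for LacZ, Sall1 from -0.92 to 0.52, Sall3 from -0.099 to 0.17, Sall4 from -0.57 to 0.13 and 0 to 1 genes called; for FDG, Sall1 from -0.070 to 0.35 and Sall2 from -0.077 to 0.015; for the difference between them, Sall1 from -0.41 to 1.04 and Sall4 from -0.29 to 0.41. It gave for HEI ENG-FDG+ against FLK1+ LacZ+ cells Sall2 from -0.098 to 0.45, and against ENG+FDG+ cells Sall1 from -0.63 to -0.29, Sall4 from -0.47 to 0.31 and 0 to 61 genes called. Against ENG+FDG- cells it gave Sall1 from -0.54 to -0.12 and 0 to 62 genes called. Among values with no call, signs turned, for example without FLK1+ LacZ- replicate 1 for Sall1, Sall3 and Sall4 in the LacZ comparison, and without HEI ENG-FDG+ replicate 1 for Sall4 against ENG+FDG+ cells. The lowest member count, 206 reads, gives a counting error of 6.97%. The cause of these shifts was not tested.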
